A study of Mus musculus with 9 samples.

Results

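The genes described here are 34 genes of the unfolded protein response and the integrated stress response, chosen by their symbols: endoplasmic reticulum (ER) chaperones and folding enzymes, the stress sensors and their transcription factors, targets of ATF4 and CHOP, ER degradation genes and subunits of the translocon. All 34 symbols were in the table of 22322 genes, in 35 rows, because Ddit3 has 2 Ensembl identifiers there. To be tested, a row had to average 1 FPKM or more across the 9 libraries (fragments per kilobase of transcript, scaled to library size). Of the 35 rows 33 passed, against 10866 of all rows. Chac1 and the second Ddit3 row did not pass. The 3 groups were 3 Cxcr3-/- mice, which lack the chemokine receptor gene Cxcr3, 3 Cxcl10-/- mice, which lack the gene of one of its ligands, and 3 wild-type (WT) mice. All were C57BL/6 animals of 6 to 8 weeks, and no treatment is given for any of them. From the bone marrow of each mouse, 500 to 800 cells with the long-term haematopoietic stem cell (LT-HSC) phenotype had been sorted, that is, Lin- Sca-1+ c-Kit+ cells that were CD135-, CD150+ and CD48-, and their polyadenylated RNA was amplified before sequencing. The labels do not say which cells the deletions affect or whether litters were shared.

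Proteins that enter the ER are folded there by chaperones and enzymes that form disulphide bonds. When unfolded protein accumulates, the sensors ATF6, IRE1 (encoded by Ern1) and PERK (encoded by Eif2ak3) act. IRE1 splices the Xbp1 mRNA, ATF6 is cut and moves to the nucleus, and PERK phosphorylates the initiation factor eIF2, which lowers general translation and favours translation of ATF4. Other kinases phosphorylate eIF2 as well, so that ATF4 also answers to amino acid shortage, viral RNA and lack of haem, which is the integrated stress response. Haematopoietic stem cells are known for a low rate of protein synthesis and for sensitivity to ER stress. The values below are mRNA levels; splicing of Xbp1, phosphorylation and translation were not measured.

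The expected counts summed to between 12098498 and 17904629 per library. The Cxcl10-/- libraries stood apart from the other 6. Across the tested genes, the Pearson r of log2(FPKM + 1) was 0.949 to 0.955 between Cxcr3-/- replicates, 0.878 to 0.899 between Cxcl10-/- replicates and 0.968 to 0.97 between WT replicates. Mitochondrial transcripts took 10.2 to 11.2% of the counts in Cxcr3-/-, 3.57 to 4.13% in Cxcl10-/- and 12.6 to 13.1% in WT. Genes with a count above 0 numbered 14618 to 18346 in Cxcr3-/-, 12561 to 13910 in Cxcl10-/- and 14510 to 16023 in WT. Cxcl10 had 112, 553 and 176 counts in the Cxcr3-/- libraries, 0 in each Cxcl10-/- library and 36, 84 and 3 in the WT libraries. Cxcr3 had 8 counts in 1 WT library and 0 in the other 8 libraries, so its level could not check the labels. The 12 listed LT-HSC markers each reached a mean of 1 FPKM in each genotype. In Cxcl10-/- against WT, 1 of these 12 markers rose, 1 fell and 10 did not pass the edgeR test described below. The called share was 16.7%, against 7.22% of all tested genes. The log2 fold changes of the 12 ran from -1.87 to 1.17, with a median of 0.02. Kit, which encodes the c-Kit used in the sort, fell to 81.4, 72.3 and 45.8 FPKM in Cxcl10-/-, against 98.1, 109.8 and 106 FPKM in WT (-0.75 ± 0.17; edgeR adjusted p = 0.026). The receptor gene Tie1, named after its values were seen, rose (1.17 ± 0.32; edgeR adjusted p = 0.0447). Slamf1, which encodes CD150 and was also named after its values were seen, was not called. It stood at 0.69, 0.71 and 4.12 FPKM in Cxcl10-/-, below the 6.87, 7.4 and 5.23 FPKM of WT. Neither gene of the markers absent by the sort was called. Flt3, which encodes CD135, stood at 13.8, 9.7 and 6.45 FPKM in Cxcl10-/- and 4.17, 6.08 and 4.75 FPKM in WT. Cd48 stood at 0, 7.94 and 0 FPKM in Cxcl10-/- and 17.8, 20.1 and 8.76 FPKM in WT. None of the 12 LT-HSC markers was called in Cxcr3-/- against WT, where none of all 10866 tested genes was.

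The ER stress response element (ERSE) is the promoter sequence through which ATF6, together with NF-Y, acts on chaperone genes. RefSeq promoter windows (GRCm38.p6, 250 bases before to 50 bases after the transcription start) matched 29 of the 34 genes by symbol, with 30 windows. The letters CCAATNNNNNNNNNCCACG, searched on both strands, were in 39 of 32851 windows of all genes (0.119%) and in 8 of the 30 windows of the genes described here. The 9 matches are shown because the motif recurs in these 8 genes, 7 of them ER folding genes and 1, Syvn1, an ER degradation gene. They are written in the direction of the motif, with capitals for its fixed letters and lower case for its spacer.
Hsp90b1, 212 to 194 bases before the start: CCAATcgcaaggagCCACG
Hsp90b1, 107 to 89 bases before the start: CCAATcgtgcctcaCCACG
Hspa5, 65 to 47 bases before the start: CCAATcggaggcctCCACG
Calr, 162 to 144 bases before the start: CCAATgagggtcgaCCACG
Canx, 145 to 127 bases before the start: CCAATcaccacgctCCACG
Creld2, 126 to 108 bases before the start: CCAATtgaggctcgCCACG
Dnajc3, 105 to 87 bases before the start: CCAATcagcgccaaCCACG
Pdia6, 98 to 80 bases before the start: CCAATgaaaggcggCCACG
Syvn1, 44 to 26 bases before the start: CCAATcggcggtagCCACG
The full windows of 3 of these genes, which were called in at least 1 comparison below, are given 5′ to 3′ on the gene's own strand, with the whole ERSE match in capitals, spacer included. Both Hsp90b1 matches lie in one window, in opposite directions, and the Calr match reads on the reverse strand.
Hsp90b1, chr10:86705395-86705694, minus strand: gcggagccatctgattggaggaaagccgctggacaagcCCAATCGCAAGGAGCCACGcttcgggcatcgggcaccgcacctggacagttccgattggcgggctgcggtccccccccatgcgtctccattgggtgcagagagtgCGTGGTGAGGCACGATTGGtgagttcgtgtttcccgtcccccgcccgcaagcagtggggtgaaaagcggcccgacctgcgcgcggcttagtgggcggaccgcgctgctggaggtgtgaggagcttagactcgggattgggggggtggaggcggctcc
Calr, chr8:84846882-84847181, minus strand: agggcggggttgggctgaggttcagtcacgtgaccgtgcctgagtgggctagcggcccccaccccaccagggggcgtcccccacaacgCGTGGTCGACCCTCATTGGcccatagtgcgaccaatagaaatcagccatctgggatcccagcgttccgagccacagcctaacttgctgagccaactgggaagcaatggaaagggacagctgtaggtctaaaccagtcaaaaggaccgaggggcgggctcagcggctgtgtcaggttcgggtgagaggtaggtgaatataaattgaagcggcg
Canx, chr11:50325624-50325923, minus strand: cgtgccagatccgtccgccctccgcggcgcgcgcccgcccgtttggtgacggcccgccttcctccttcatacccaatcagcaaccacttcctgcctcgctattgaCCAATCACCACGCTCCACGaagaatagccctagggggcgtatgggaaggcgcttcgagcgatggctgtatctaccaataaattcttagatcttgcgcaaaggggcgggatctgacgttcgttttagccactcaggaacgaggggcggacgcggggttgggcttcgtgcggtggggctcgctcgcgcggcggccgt

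Other stress elements were searched in the same way. The ERSE-II letters, ATTGG and CCACG with 1 base between them, were in the windows of Herpud1 (ATTGGgCCACG) and Dnajb11 (ATTGGcCCACG), and in 0.0365% of all windows. The letters TGATGNAA, the core of the element bound by ATF4 with C/EBP factors, were in the windows of Asns (TGATGaAA), Chac1 (TGATGcAA), Herpud1 (TGATGcAA) and Trib3 (TGATGtAA), and in 3.97% of all windows. The UPRE letters TGACGTGG were in none of the 30 windows and in 0.676% of all windows. No window held both an ERSE and an ERSE-II match. A match in these windows shows letters and not binding, and a window without one says nothing of sites elsewhere.

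The 33 tested genes spanned a wide range of levels, which can be set side by side because FPKM is scaled by length. In WT the highest was Sec61b, which encodes a subunit of the channel through which proteins enter the ER, at 495 ± 20.4 FPKM (SD, n = 3). It was followed by the lectin chaperone gene Canx (174 ± 6.89 FPKM), the secreted survival factor gene Manf (156 ± 58.3 FPKM) and Hsp90b1, the ER form of HSP90 (123 ± 11.1 FPKM). Canx, Manf and Hsp90b1 lay within the spread of Manf. The sensors were low in WT, with 3.59 ± 1.05 FPKM for Ern1, 3.50 ± 0.637 FPKM for Atf6 and 2.69 ± 1.24 FPKM for Eif2ak3. Summed over the 35 rows, the FPKM came to 1799, 1836 and 1829 in Cxcr3-/-, to 2269, 2267 and 2119 in Cxcl10-/-, and to 1755, 1807 and 1530 in WT. The Cxcl10-/- sums were above those of the other 6 libraries.

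**Figure D1:**
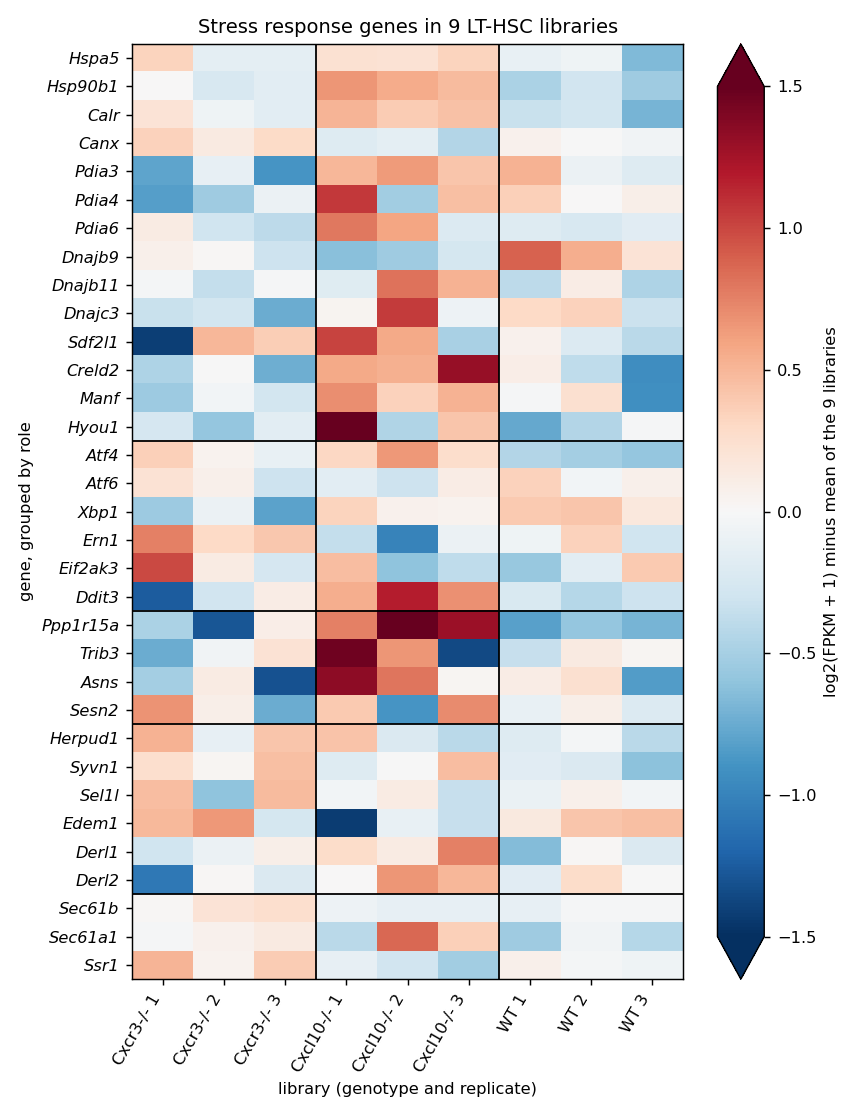
Level of the 33 tested genes (rows, in 5 role groups parted by lines) in the 9 libraries (columns, Cxcr3-/- left, Cxcl10-/- middle, WT right), as log2(FPKM + 1) minus the gene's mean over the 9 libraries; the colour scale stops at 1.5 in either direction. Hsp90b1, Calr and Ppp1r15a are above their mean in the 3 Cxcl10-/- libraries, and Dnajb9 is below it there.

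The first comparison, Cxcl10-/- against WT, concerns the loss of the ligand. Of the 33 tested genes, 4 rose and 1 fell in Cxcl10-/-, and 28 did not pass (edgeR quasi-likelihood test on the expected counts, Benjamini-Hochberg adjusted p under 0.05 over all tested genes). These 5 are 15.2% of the genes described; over all 10866 tested genes 7.22% were called, 3.52% higher and 3.7% lower. The risen genes were the ER chaperone genes Hsp90b1 and Calr, the transcription factor gene Atf4 and Ppp1r15a, whose product GADD34 directs a phosphatase to eIF2. The gene that fell was Dnajb9, which encodes a co-chaperone of BiP that holds IRE1 inactive. The median log2 fold change of the 33 genes was 0.48, against 0.06 over all tested genes. An unadjusted p under 0.05 was reached by 13 of them and by 24.3% of all tested genes. FPKM did not overlap between the groups for 9 genes that were higher in Cxcl10-/- and 4 that were lower, where 18.3% and 11.9% of all tested genes were so. Hyou1 passed the filter only through the Cxcl10-/- libraries, mainly through replicate 1 (9.61 FPKM), and Sesn2 did not reach a mean of 1 FPKM in WT.

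Among the 14 ER folding genes, 2 rose and 1 fell, with a median log2 fold change of 0.57. Hsp90b1 (ENSMUSG00000020048) encodes GRP94, which folds integrins and Toll-like receptors. It stood at 264, 246 and 232 FPKM in Cxcl10-/-, against 119, 136 and 115 FPKM in WT. Each Cxcl10-/- library was above every WT library, and the log2 fold change was 0.91 ± 0.13 (SE, n = 3 per group; edgeR adjusted p = 0.00367). This call held in each of the 19 alternative settings. Calr encodes calreticulin, the soluble lectin chaperone of the ER. It stood at 142, 130 and 136 FPKM in Cxcl10-/- and at 78.7, 81.8 and 61.0 FPKM in WT, again without overlap. Its log2 fold change was 0.79 ± 0.17 (edgeR adjusted p = 0.0194).

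Dnajb9 stood at 23.8, 25.5 and 30.9 FPKM in Cxcl10-/-, against 69.3, 54.5 and 43.1 FPKM in WT. The groups did not overlap, and the WT libraries were farther from each other than the Cxcl10-/- ones. It fell by 1.15 on the log2 scale (SE 0.24; edgeR adjusted p = 0.0164). Canx, the membrane-bound partner of calreticulin, stood at 152, 156 and 127 FPKM in Cxcl10-/-, against 181, 173 and 167 FPKM in WT. These groups did not overlap either, but Canx did not pass (-0.35 ± 0.12; edgeR adjusted p = 0.105), and correction for GC content and length moved it to 0.02. Hspa5 encodes BiP, the ER chaperone that keeps all 3 sensors inactive. It stood at 99.6, 98.9 and 107 FPKM in Cxcl10-/- and at 78.6, 80.9 and 53.4 FPKM in WT, which did not overlap, and did not pass (0.43 ± 0.20; edgeR adjusted p = 0.223).

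Of the other ER folding genes, Creld2, a disulphide isomerase-like gene induced by ER stress, had 49.0, 47.9 and 82.7 FPKM in Cxcl10-/-, against 35.1, 24.96 and 16.7 FPKM in WT. There was no overlap, and the gene missed the threshold (1.14 ± 0.37; edgeR adjusted p = 0.0795); it passed with limma (adjusted p = 0.0372) and DESeq2 (0.0301), which called 9.28% and 13.8% of all tested genes. Manf stood at 281, 220 and 249 FPKM in Cxcl10-/-, above the 172, 204 and 91.0 FPKM of WT, and did not pass (0.59 ± 0.26; edgeR adjusted p = 0.193). The disulphide isomerase genes Pdia3, Pdia4 and Pdia6, the BiP partners Dnajb11, Dnajc3 and Sdf2l1 and the BiP exchange factor gene Hyou1 overlapped between the groups. Their log2 fold changes ran between 0.20 for Dnajc3 and 1.14 for Hyou1, and none of them passed. Of the 8 genes with an ERSE in the window, 7 had a positive log2 fold change and 2 of them were called, with a median of 0.52. The 20 tested genes whose window held no ERSE had 12 positive values, 3 calls and a median of 0.19. No test was made of this difference. It cannot be told apart from role, since 7 of the 8 genes with an ERSE are ER folding genes. The 14 ER folding genes together had 12 positive values and a median of 0.57.

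Of the 6 sensor and transcription factor genes, 1 rose. Atf4, the transcription factor gene of the integrated stress response, stood at 53.4, 68.3 and 51.8 FPKM in Cxcl10-/- against 31.4, 30.0 and 28.5 FPKM in WT. All Cxcl10-/- libraries were above all WT libraries, and the log2 fold change was 0.86 ± 0.21 (edgeR adjusted p = 0.0345). Ddit3, which encodes CHOP, the transcription factor tied to cell death under lasting stress, stood at 69.7, 109 and 76.9 FPKM in Cxcl10-/- against 40.5, 35.01 and 38.2 FPKM in WT. The groups did not overlap, but Ddit3 missed the threshold (1.05 ± 0.35; edgeR adjusted p = 0.0887), and passed with limma (0.0447) and DESeq2 (0.0427). Ddit3 overlaps Mars1 on the opposite strand, and whether the counting used strand is not given. Mars1 stood at 34.2, 17.3 and 13.7 FPKM in Cxcl10-/- and at 9.51, 9 and 11.8 FPKM in WT.

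The sensor genes of the 3 branches had no called change. Ern1 stood at 2.53, 1.27 and 3.27 FPKM in Cxcl10-/-, against 3.34, 4.74 and 2.68 FPKM in WT, so that the groups overlapped (-0.65 ± 0.42; edgeR adjusted p = 0.374). Atf6 had a log2 fold change of -0.41 ± 0.36 and Eif2ak3 one of -0.03 ± 0.61. Xbp1, the transcription factor gene whose mRNA IRE1 splices, stood at 60.2, 49.8 and 49.2 FPKM in Cxcl10-/- and at 62.6, 63.9 and 53.1 FPKM in WT (-0.24 ± 0.22; edgeR adjusted p = 0.556). Levels of these 4 genes overlapped between the groups.

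Of the 5 targets of ATF4 and CHOP, 4 were tested and 1 rose. Ppp1r15a stood at 49.3, 96.1 and 71.1 FPKM in Cxcl10-/-, against 15.8, 18.9 and 17.2 FPKM in WT. The lowest Cxcl10-/- library was well above the highest WT library, and the log2 fold change of 2.07 ± 0.39 was the largest among the 33 genes (edgeR adjusted p = 0.0101). Asns, the asparagine synthetase gene, stood at 27.8, 18.8 and 10.5 FPKM in Cxcl10-/- and at 11.2, 12.4 and 5.36 FPKM in WT; the third Cxcl10-/- library fell within the WT range, and Asns did not pass (0.87 ± 0.51; edgeR adjusted p = 0.324). Trib3, a pseudokinase gene that CHOP induces, stood at 8.01, 4.19 and 0.28 FPKM in Cxcl10-/-, against 1.58, 2.59 and 2.34 FPKM in WT, with Cxcl10-/- libraries on both sides of the WT range (0.83 ± 0.98; edgeR adjusted p = 0.657). Sesn2, a sestrin gene that restrains mTORC1, did not pass (0.50 ± 1.18), and Chac1, a glutathione-degrading enzyme gene, had 0, 2 and 19 counts in Cxcl10-/- and 0, 0 and 1 in WT.

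None of the 6 ER degradation genes and none of the 3 translocon genes passed. Edem1, which encodes a lectin that hands misfolded glycoproteins to degradation, stood at 0.58, 2.91 and 2.32 FPKM in Cxcl10-/-, below the 3.68, 4.65 and 4.80 FPKM of WT (-1.25 ± 0.54; edgeR adjusted p = 0.179). Derl1, a subunit of the retrotranslocation channel, stood above WT without overlap, at 29.7, 26.8 and 42.1 FPKM in Cxcl10-/- against 15.2, 24.7 and 20.9 FPKM in WT (0.62 ± 0.26; edgeR adjusted p = 0.168). The log2 fold changes of the ubiquitin ligase gene Syvn1, its partner Sel1l, the membrane adaptor gene Herpud1 and Derl2 lay between -0.15 and 0.48. Of the translocon genes, Ssr1, a subunit of the translocon-associated complex, was lower without overlap (22.1, 19.6 and 16.5 FPKM in Cxcl10-/-, against 25.3, 23.5 and 23.0 FPKM in WT; -0.40 ± 0.17; edgeR adjusted p = 0.168). Sec61b overlapped between the groups, at 486, 472 and 469 FPKM in Cxcl10-/- and 471, 507 and 506 FPKM in WT.

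The number of calls depended on each of the 3 WT libraries. Without WT replicates 1, 2 and 3 in turn, 2, 1 and 2 of the 33 genes were called, and 229, 193 and 253 of all genes in place of 785. Calr then had an adjusted p of 0.0535, 0.0662 and 0.0907 in turn, and Atf4 one of 0.0915, 0.135 and 0.13. Dnajb9 was not called without WT replicate 1 (0.0858) or WT replicate 2 (0.0652), and Ppp1r15a not without WT replicate 2 (0.0605) or WT replicate 3 (0.0517). The fold changes of these genes kept their direction: Calr lay between 0.66 and 0.86, Atf4 between 0.81 and 0.92, and Ppp1r15a was 2.03 in both cases. Dnajb9 moved from -1.15 to -0.93 without WT replicate 1 and to -1.18 without WT replicate 2. The median of the 33 genes moved from 0.48 to 0.32 without WT replicate 3. Correction for GC content and transcript length ended the calls of Atf4 (0.48; adjusted p = 0.236) and Dnajb9 (-0.68; adjusted p = 0.085). Atf4 also missed the threshold without Cxcl10-/- replicate 2 (0.0649), without Cxcr3-/- replicate 2 (0.0513), with the replicate block (0.0641) and with only both compared groups in the fit (0.0645).

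**Figure D2:**
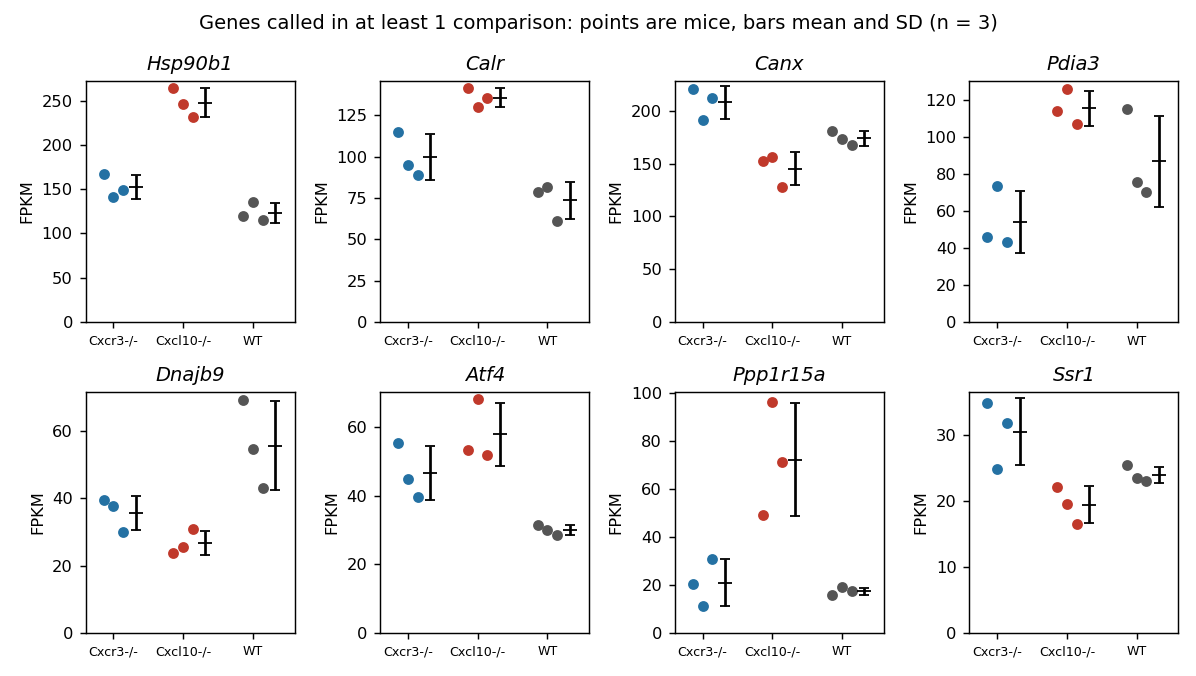
FPKM of the 8 genes called in at least 1 comparison; each point is 1 mouse, and the bars give mean and SD of 3 mice per genotype (Cxcr3-/- left, Cxcl10-/- middle, WT right). Hsp90b1 lies between 232 and 264 FPKM in Cxcl10-/- and at most at 168 FPKM in the other libraries, whereas Canx is lowest in Cxcl10-/-.

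Other genes of the same pathways, from 5 lists, were called in 8.7 to 13.8% of cases, against 7.22% of all tested genes. Of 23 further ER folding genes 2 rose and 1 fell (median 0.41). Erp29, an ER chaperone gene of the disulphide isomerase family, stood at 114, 99.2 and 93.4 FPKM in Cxcl10-/- against 35.8, 39.5 and 51.7 FPKM in WT (0.89 ± 0.20; edgeR adjusted p = 0.0254). Sil1, an exchange factor gene for BiP, rose as well (1.90 ± 0.47), while the disulphide reductase gene Dnajc10 fell (-0.75 ± 0.21). Of 22 further sensors and factors, Nupr1, a stress-induced chromatin protein gene, rose (1.25 ± 0.32; edgeR adjusted p = 0.0385) and the adaptor gene Nck1 fell (-0.95 ± 0.24). Of 22 further ATF4 targets 2 rose and none fell, the aminoacyl-tRNA synthetase genes Sars (1.10 ± 0.30) and Tars (0.99 ± 0.27).

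Of 23 further ER degradation genes 2 rose. Vcp, the ATPase gene that pulls proteins out of the ER membrane, stood at 76.6, 93.7 and 82.5 FPKM in Cxcl10-/- against 37.9, 44.5 and 40.9 FPKM in WT (0.95 ± 0.16; edgeR adjusted p = 0.00635). The chaperone gene Bag6 was the other (1.51 ± 0.38). Of 29 further translocation and glycosylation genes 3 rose, namely Sec62 (0.75 ± 0.19), the oligosaccharyltransferase gene Rpn1 (0.97 ± 0.25) and the signal peptidase gene Sec11a (0.79 ± 0.21). Tram1, which encodes a membrane protein beside the translocon, fell to 68.0, 70.0 and 61.1 FPKM in Cxcl10-/-, against 107, 99.5 and 106 FPKM in WT (-0.74 ± 0.14; edgeR adjusted p = 0.0102). The 5 lists together thus held both rising and falling genes.

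Markers of tissue handling, endothelium, stroma and bone, and macrophages summed higher in the Cxcl10-/- libraries than in WT. The marker lists are given as summed levels and as the number of markers with a mean of at least 1 FPKM in a genotype. Several of the markers passed the filter for testing only through the Cxcl10-/- libraries. The 16 genes induced by dissociation summed to 387 to 766 FPKM in Cxcl10-/- and 82.7 to 96.5 FPKM in WT, and 12 of them reached 1 FPKM in Cxcl10-/- and 11 in WT. Fos alone stood at 144, 156 and 63.8 FPKM in Cxcl10-/- against 1.22, 1.62 and 0.13 FPKM in WT. The 12 endothelial markers summed to 468 to 672 FPKM in Cxcl10-/- and 58.1 to 75.4 FPKM in WT, with 12 of them at 1 FPKM or more in Cxcl10-/- and 4 in WT. The highest of them, Fabp4, took 287 to 455 FPKM of that in Cxcl10-/-. In bulk RNA, more cells of a type and more RNA per cell cannot be told apart. The 10 stromal and bone markers summed to 93.1 to 350.2 FPKM in Cxcl10-/- and 16.5 to 21.4 FPKM in WT, with 7 at 1 FPKM or more in Cxcl10-/- and 2 in WT. The 7 macrophage markers summed to 34.5 to 71.0 FPKM in Cxcl10-/- and 11.0 to 23.9 FPKM in WT, with 6 and 4 at 1 FPKM or more. A negative log2 fold change was found for 1 of 11 tested endothelial, 1 of 6 stromal and bone and 1 of 5 macrophage markers. The bone marker gene Runx2 stood at 10.7, 10.4 and 8.05 FPKM in Cxcl10-/-, below the 13.4, 15.9 and 14.5 FPKM of WT. The macrophage marker gene Cd68 overlapped, at 18.5, 2.99 and 0.15 FPKM against 18.2, 5.81 and 6.9 FPKM in WT. Levels of the endothelial Emcn overlapped as well. The 6 erythroid markers summed to 65.8 to 403.5 FPKM in Cxcl10-/- and 47.5 to 74.1 FPKM in WT, and the 7 neutrophil markers to 14.5 to 179.8 FPKM and 11.1 to 22.8 FPKM; the ranges of both lists overlapped. The part of these lists in the rises of Hsp90b1, Calr, Atf4 and Ppp1r15a was not tested. Plasma cells are rich in ER chaperones. Of their markers, Jchain stood at 0, 0.10 and 0 FPKM in Cxcl10-/- against 2.95, 2.16 and 0.32 FPKM in WT, and Mzb1 at 0 FPKM in each Cxcl10-/- library against 0.77, 0.07 and 1.05 FPKM in WT. The plasma and B cell list summed to between 0.05 and 16.1 FPKM in Cxcl10-/- and between 2.09 and 5.33 FPKM in WT, and the 16.1 came mainly from Igkc at 11.7 FPKM in replicate 3. Of the 11 markers in this list 2 passed the filter for testing, and the part of the list in the chaperone levels was not tested.

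**Figure D3:**
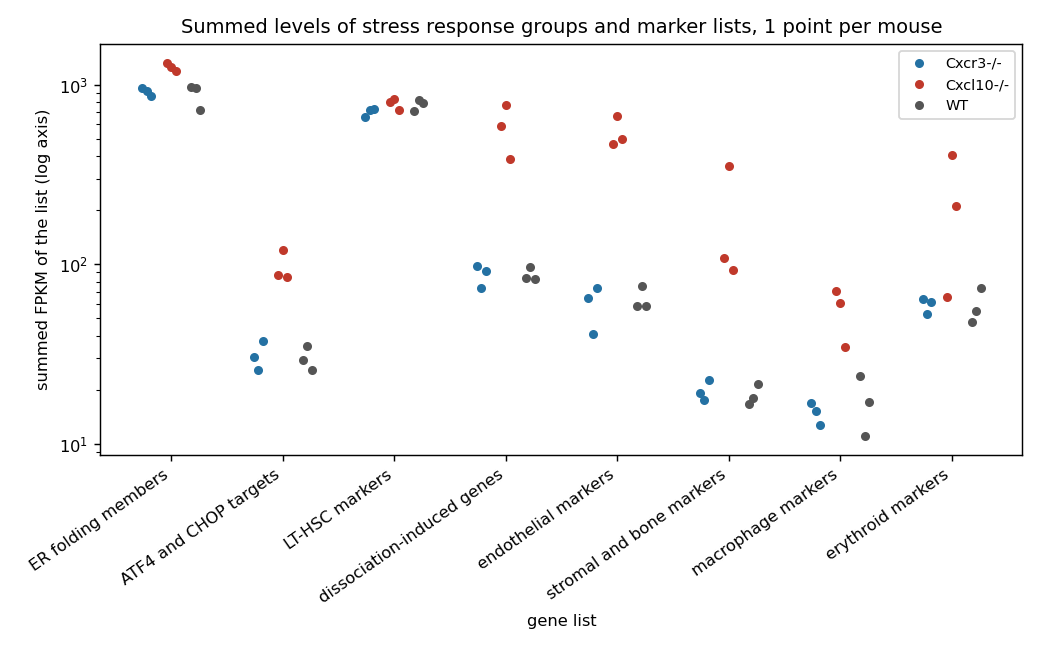
Summed FPKM (log axis) of the ER folding genes, of the ATF4 and CHOP targets and of 6 marker lists, with 1 point per mouse and Cxcr3-/- left, Cxcl10-/- middle and WT right within each list. The ER folding genes lie at 1198 to 1327 FPKM in Cxcl10-/- and 724 to 970 FPKM in WT, while the dissociation-induced genes lie at 387 to 766 FPKM and 82.7 to 96.5 FPKM.

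The comparison of Cxcr3-/- with WT concerns the loss of the receptor. None of the 33 genes was called, and none of the 10866 tested genes was (0.0%; edgeR quasi-likelihood test). At an unadjusted p under 0.05 there were 5 of the 33 genes and 681 of all genes (6.27%). By DESeq2, 1 of the 33 and 68 of all genes (0.626%) were called, and by limma none. The log2 fold changes of the 33 genes lay between -0.82 and 0.62, with a median of 0.12 against 0.02 over all tested genes, and with standard errors of 0.12 to 1.18.

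The gene with the smallest p was Xbp1, at 32.3, 44.8 and 26.8 FPKM in Cxcr3-/- against 62.6, 63.9 and 53.1 FPKM in WT. The groups did not overlap (-0.82 ± 0.23, 95% interval -1.26 to -0.38; edgeR adjusted p = 0.643), and Xbp1 was the gene that DESeq2 called (-0.84; adjusted p = 0.0365). Dnajb9, a target of XBP1, stood at 39.4, 37.6 and 29.8 FPKM in Cxcr3-/-, below the 69.3, 54.5 and 43.1 FPKM of WT (-0.72 ± 0.24; edgeR adjusted p = 0.667). Edem1, another target, overlapped fully, at 4.94, 5.63 and 2.52 FPKM in Cxcr3-/- and 3.68, 4.65 and 4.80 FPKM in WT. Pdia3 stood at 45.9, 73.6 and 43.2 FPKM in Cxcr3-/- and 115, 75.6 and 70.3 FPKM in WT, with an overlap (-0.75 ± 0.25; edgeR adjusted p = 0.667).

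Higher in each Cxcr3-/- library than in each WT library were 7 of the 33 genes, where 12.1% of all tested genes were, and lower were 3, where 7.63% were. Atf4 stood at 55.2, 44.7 and 39.6 FPKM in Cxcr3-/- against 31.4, 30.0 and 28.5 FPKM in WT (0.57 ± 0.21; edgeR adjusted p = 0.716). The others above WT were Hsp90b1 (168, 141 and 149 FPKM against 119, 136 and 115 FPKM in WT; 0.24 ± 0.13), Calr (0.37 ± 0.17), Canx (0.21 ± 0.12), Syvn1, Sec61b and Sec61a1. The Syvn1 gene lies across Mrpl49 on the opposite strand, which averaged 42.9 FPKM, and whether the counting used strand is not given. Ppp1r15a overlapped, at 20.4, 11.2 and 30.8 FPKM in Cxcr3-/- and 15.8, 18.9 and 17.2 FPKM in WT, with a 95% interval of -0.55 to 0.92 for the log2 fold change. The marker lists of other cells stood close to WT: the endothelial markers summed to 40.6 to 73.9 FPKM in Cxcr3-/- and 58.1 to 75.4 FPKM in WT, and the dissociation-induced genes to 73.5 to 97.6 FPKM and 82.7 to 96.5 FPKM.

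**Figure D4:**
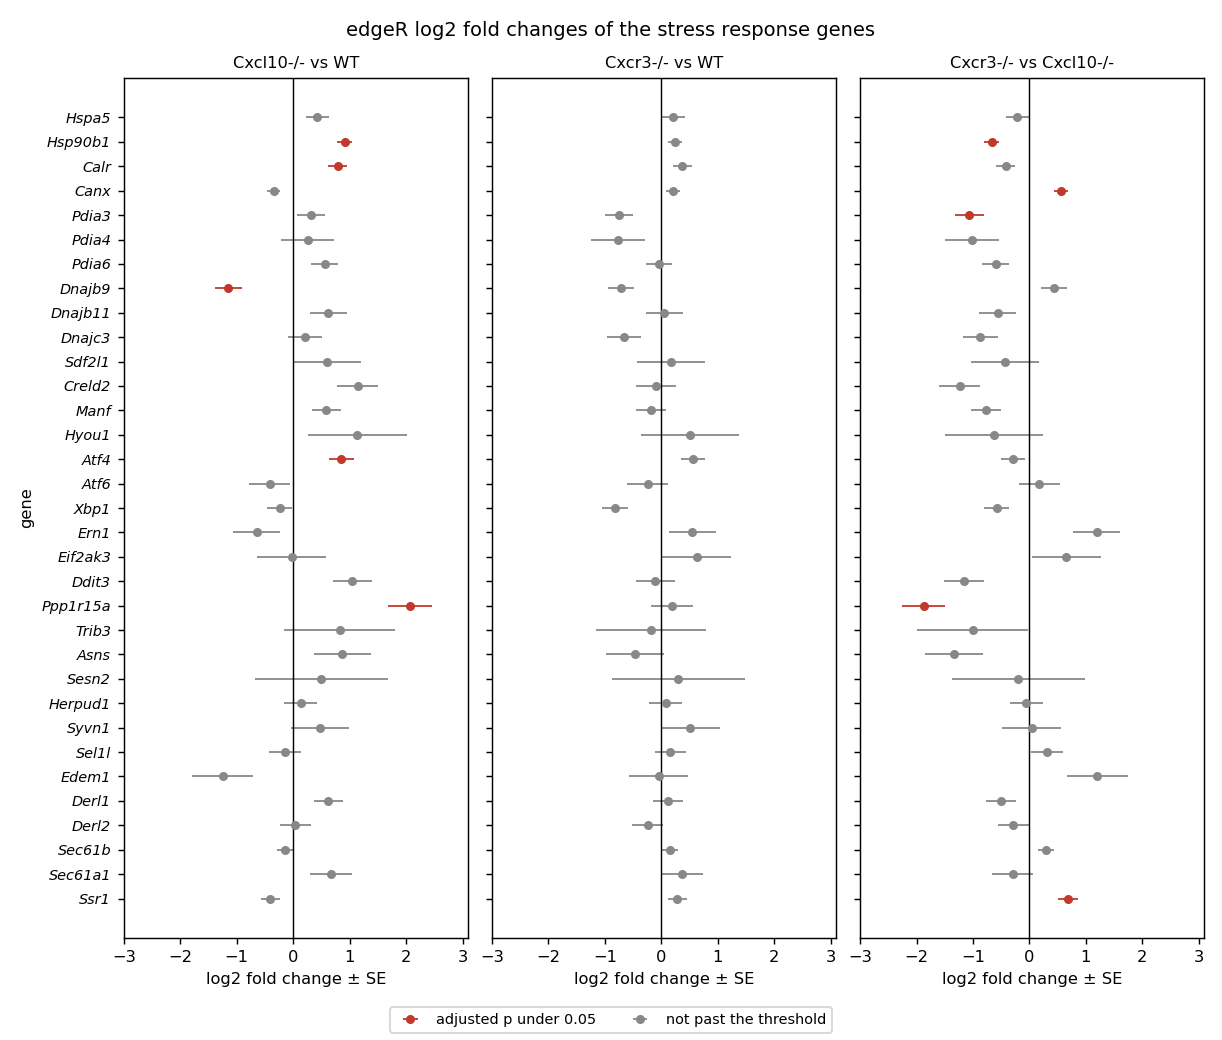
Log2 fold changes with standard errors (edgeR, n = 3 per group) of the 33 tested genes in the 3 comparisons, one panel each, with red for adjusted p under 0.05. Ppp1r15a is at 2.07 in the left panel (Cxcl10-/- against WT), at 0.19 in the middle panel (Cxcr3-/- against WT) and at -1.88 in the right panel (Cxcr3-/- against Cxcl10-/-).

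Cxcr3-/- against Cxcl10-/- sets the loss of the receptor against that of the ligand. Of the 33 genes 2 were higher and 3 lower in Cxcr3-/- (15.2%), where 10.5% of all tested genes were called, 5.1% higher and 5.41% lower (edgeR). Lower were Hsp90b1, Pdia3 and Ppp1r15a, and higher were Canx and Ssr1. This comparison shares the Cxcl10-/- libraries with that against WT, so the values are set side by side and do not stand for each other. The median of the 33 genes was -0.42, against -0.05 over all tested genes. FPKM did not overlap for 4 genes that were higher and 10 that were lower in Cxcr3-/-, where 12.7% and 16.4% of all tested genes did not.

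Hsp90b1 stood at 168, 141 and 149 FPKM in Cxcr3-/-, against 264, 246 and 232 FPKM in Cxcl10-/- (-0.67 ± 0.13; edgeR adjusted p = 0.00896). The call held in each of the 19 alternative settings. Pdia3, which encodes the disulphide isomerase that works with calnexin and calreticulin, fell to 45.9, 73.6 and 43.2 FPKM in Cxcr3-/-, against 114, 126 and 107 FPKM in Cxcl10-/- (-1.06 ± 0.25; edgeR adjusted p = 0.0204). Ppp1r15a stood at 20.4, 11.2 and 30.8 FPKM in Cxcr3-/-, against 49.3, 96.1 and 71.1 FPKM in Cxcl10-/- (-1.88 ± 0.38; edgeR adjusted p = 0.012). None of these 3 genes overlapped between the groups.

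The lectin chaperone gene Canx went the other way, at 221, 191 and 212 FPKM in Cxcr3-/-, against 152, 156 and 127 FPKM in Cxcl10-/- (0.56 ± 0.12; edgeR adjusted p = 0.0158). Ssr1 stood at 34.8, 24.9 and 31.7 FPKM in Cxcr3-/-, against 22.1, 19.6 and 16.5 FPKM in Cxcl10-/- (0.68 ± 0.17; edgeR adjusted p = 0.0258). Calr, the soluble relative of Canx, was lower without overlap, at 115, 95.2 and 89.2 FPKM in Cxcr3-/- against 142, 130 and 136 FPKM in Cxcl10-/-, and did not pass (-0.42 ± 0.17; edgeR adjusted p = 0.138). Creld2 (-1.23 ± 0.37; edgeR adjusted p = 0.0513) and Ddit3 (-1.16 ± 0.35; 0.0551) were just outside the threshold, and both passed with limma and DESeq2, which called 12.5% and 16.7% of all tested genes here. Ern1 stood at 6.64, 4.58 and 5.01 FPKM in Cxcr3-/-, above the 2.53, 1.27 and 3.27 FPKM of Cxcl10-/- (1.19 ± 0.42; edgeR adjusted p = 0.0923).

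The number of called genes again rested on single libraries. Without Cxcr3-/- replicate 1 or 3, 2 of the 33 genes were called, and 423 and 517 of all genes in place of 1142. Without Cxcl10-/- replicate 1 there were 8 of the 33 and 1407 of all genes. Pdia3 missed the threshold without Cxcr3-/- replicate 1 (adjusted p = 0.088) or 3 (0.0847), Ppp1r15a without Cxcr3-/- replicate 1 (0.059) and Canx without Cxcr3-/- replicate 3 (0.0605). Correction for GC content and length ended the calls of Canx (0.25; adjusted p = 0.202) and Ssr1 (0.26; 0.33), and brought in Sec61b (0.78; 0.00578). Ssr1 also missed the threshold without Cxcr3-/- replicate 1 (0.0924) or 3 (0.0857), without Cxcl10-/- replicate 3 (0.0594), and with limma (0.102).

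Among the other genes of the pathways, Cxcr3-/- libraries were mostly lower where they differed from Cxcl10-/- libraries. The called share was 21.7% of the further ER folding genes, 17.4% of the ER degradation genes, 13.6% of the sensors and factors, 4.55% of the ATF4 targets and 20.7% of the translocation and glycosylation genes, against 10.5% of all tested genes (5.1% higher and 5.41% lower). Of 23 further ER folding genes 5 were lower and none higher, led by Selenos, a membrane selenoprotein gene of ER degradation, at 49.96, 79.5 and 59.0 FPKM in Cxcr3-/- against 159, 168 and 132 FPKM in Cxcl10-/- (-1.25 ± 0.22; edgeR adjusted p = 0.00678). Of 23 further ER degradation genes 4 were lower, Selenos and Vcp (-0.58 ± 0.15) among them. Of 22 further sensors and factors 3 were lower: Nupr1 (-1.43 ± 0.32), the initiation factor gene Eif2b3 (-1.86 ± 0.46) and Eif2ak2, the gene of the RNA-activated eIF2 kinase (-1.54 ± 0.38). Eif2ak2 stood at 9.69, 6.25 and 8.41 FPKM in Cxcr3-/- and 11.3, 37.9 and 22.8 FPKM in Cxcl10-/-. Of 22 further ATF4 targets 1 was called, the amino acid transporter gene Slc38a2, which was higher (0.86 ± 0.15; edgeR adjusted p = 0.00618). Of 29 further translocation and glycosylation genes 5 were lower, led by Sec11a (-1.20 ± 0.22), and Tram1 was higher (0.87 ± 0.14). The dissociation-induced genes summed to 73.5 to 97.6 FPKM in Cxcr3-/- against 387 to 766 FPKM in Cxcl10-/-, and the endothelial markers to 40.6 to 73.9 FPKM against 468 to 672 FPKM; their part in these differences was not tested.

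**Figure D5:**
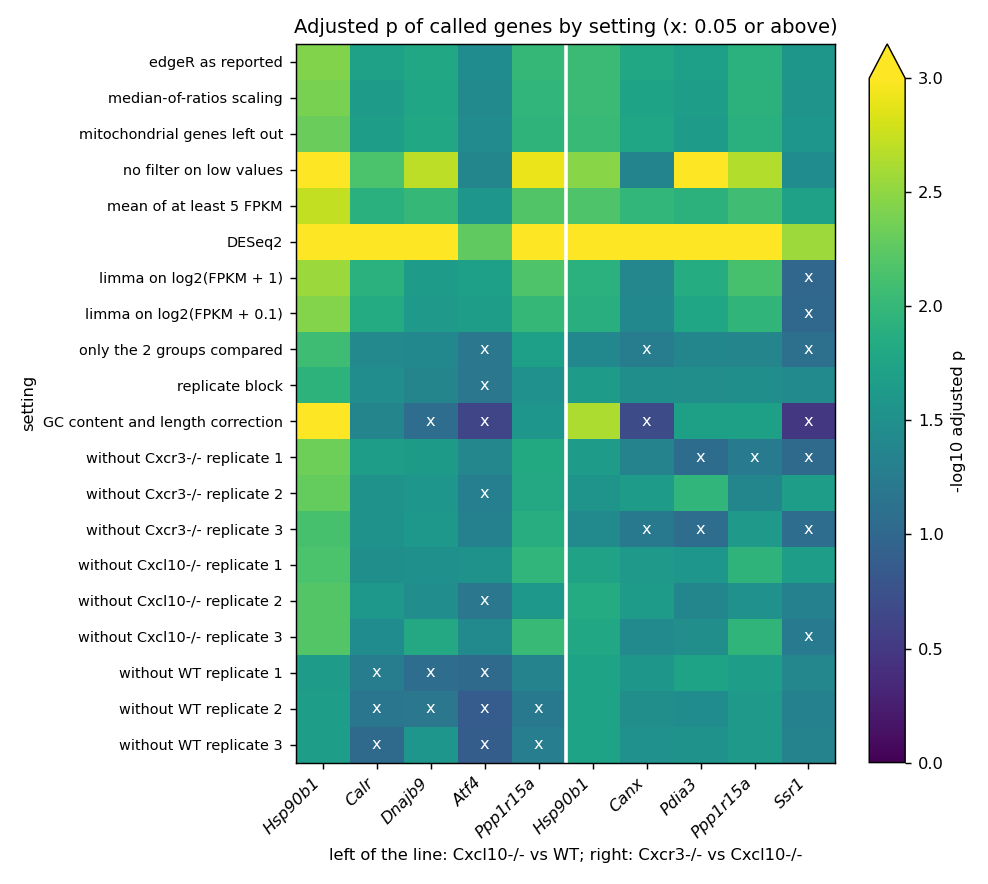
Adjusted p (colour, as -log10) of the 10 calls among the 33 genes under the reported edgeR fit and 19 alternative settings; a white x marks an adjusted p of 0.05 or above. Columns left of the line are Cxcl10-/- against WT and those right of it Cxcr3-/- against Cxcl10-/-; only Hsp90b1 has no x in either.

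The genes also varied within genotypes. Their median coefficient of variation of FPKM was 22.8% in Cxcr3-/-, 31.2% in Cxcl10-/- and 18.2% in WT, against 24.5%, 38.6% and 20.2% over all tested genes in the same order of genotypes. By FPKM, Sec61b was the steadiest gene in Cxcl10-/- (1.95%) and Hyou1 the most variable (119.7%). Hyou1 stood at 9.61, 0.61 and 1.95 FPKM in Cxcl10-/-, with 103, 38 and 88 counts. Its counts thus differed far less between these libraries than its FPKM, and the 119.7% describes the FPKM only. Sdf2l1 stood at 24.98, 17.95 and 8.14 FPKM and Pdia4 at 16.5, 4.81 and 10.5 FPKM in the same libraries, so that replicate 1 was the highest for each of these 3 ER folding genes, as for Trib3 and Asns. Across the 33 genes, replicate 1 was the highest Cxcl10-/- library for 14 and the lowest for 8. In WT, replicate 3 was the lowest of the 3 libraries for 19 of the 33 genes and the highest for 4; Hspa5 stood at 53.4 FPKM there and at 78.6 and 80.9 FPKM in the other two, and Manf at 91.0 FPKM against 172 and 204 FPKM.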

How the data were processed

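The authors deposited 1 table with FPKM, scaled by them to transcript length and library size, and with expected counts per gene, per the file headers; 87.1% of the count values are whole. Per the submitters' processing notes, RSEM, StringTie, HISAT2 and fastp were used; their versions, the build and strand use are not stated in the sources used here. Expected counts were rounded. Genes that averaged 1 FPKM or more across the 9 libraries were fitted with edgeR 4.0.16 (TMM factors, glmQLFit, glmQLFTest, R 4.3.3), with 1 mean per genotype over all 9 libraries and Benjamini-Hochberg adjustment over all 10866 genes. The SE is the fold change over the root of the quasi-likelihood F, and a 95% interval is 1.96 SE to each side. Such an interval is approximate and narrower than the test would give. For Hspa5 in Cxcl10-/- against WT it ran from 0.027 to 0.825, at an unadjusted p of 0.058 (edgeR). Alternatives were DESeq2 1.42.0, limma 3.58.1 on log2(FPKM + 1), other scalings and filters, a correction for GC content and length (a loess per library, for the 10856 genes with values in GENCODE M21), a replicate block and leaving out each library. Per the labels, each replicate is 1 mouse. No batch is given. Reads carry no molecular identifiers, so copies made by amplification are counted as reads. The SEs rest on the spread between libraries of a genotype as well as on counting error. The genes and lists were chosen with earlier results of these data known; the 33 tested genes were all open to naming, and up to 5 called genes of each further list, by p, and the 3 highest genes of each marker list. Sequences are from RefSeq.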

Additional observations from a re-analysis of the deposited data

How the results depend on the processing

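All values are called genes in edgeR unless another tool is named. In Cxcl10-/- against WT, the reported 5 of the 33 genes and 785 of all genes became 8 and 1498 with DESeq2. All genes called numbered 1183 with no filter on low values, 414 with only the compared groups in the fit and 442 with the replicate block. Leaving out 1 library gave 1 to 6 of the 33 genes and 193 to 1005 of all genes; the low end came from WT libraries. The median of the 33 genes was 0.36 with the GC content and length correction and 0.32 to 0.53 with 1 library left out. In Cxcr3-/- against WT, DESeq2 called 1 of the 33 and 68 of all genes, no filter gave 38 of all genes, and leaving out 1 library gave 0 to 6 of all genes (6 without Cxcr3-/- replicate 2) and a median of 0.03 to 0.15. In Cxcr3-/- against Cxcl10-/-, the reported 5 and 1142 became 9 and 1814 with DESeq2, 9 of the 33 with no filter, and 3 and 423 with only the compared groups; leaving out 1 library gave 2 to 8 of the 33 and 423 to 1407 of all genes. The median was -0.33 with the GC content and length correction and -0.42 to -0.33 with 1 library left out. Single genes kept their side of the threshold in 1792 of 1857 combinations of gene, comparison and setting. In these, 29 calls were lost, 36 were gained and none of the called values changed sign. Most combinations are of genes not called in the reported fit, so the 1792 says little of how firm the calls were. Of the 10 calls, only those of Hsp90b1 held in each of the 19 settings, and Atf4 held in 11 and Ssr1 in 12 of them. The cause of these shifts was not tested, beyond the fewer samples in some fits. Deviations of same-numbered libraries from their group means had correlations between -0.086 and 0.031, and those of different-numbered libraries between -0.049 and 0.096. These values showed no pairing by replicate number. They cannot settle whether litters or days were shared, since effects on few genes would not show in them. The replicate block ended 1 call among the 10, that of Atf4 in Cxcl10-/- against WT (adjusted p = 0.0641).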
